A study of Saccharomyces cerevisiae with 3 samples.

Results

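The genes described here encode the machinery that carries proteins into mitochondria and folds them there. The 33 genes are named subunits of the TOM, SAM, TIM22 and TIM23 membrane complexes, the small TIM chaperones, the import motor, the mitochondrial processing peptidase, and the Hsp60 chaperonin with its partner Hsp10. They were chosen by name, as the probe sets annotated to these genes. No measured value served as a filter, though earlier results of these data were known. All 33 had a probe set of their own, 1 each, among 5449 *S. cerevisiae* genes measured.

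Nearly all mitochondrial proteins are made in the cytosol and imported. They cross the outer membrane through the TOM complex and are then sorted: barrel proteins go to the SAM complex, multispanning carriers are escorted by the small TIM chaperones to the TIM22 complex, and proteins with a cleavable presequence pass the TIM23 complex and are pulled into the matrix by the Hsp70 motor. The presequence is then removed by the processing peptidase, and many of the imported proteins fold inside the Hsp60 chaperonin. Many of these subunits are essential for growth in yeast.

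RNA was taken on Day 3 of culture from haploid yeast of 3 genotypes, with 1 Affymetrix Yeast Genome 2.0 array for each: wild-type, *met15Δ*, which cannot assimilate sulfide into methionine, and *met15Δ rtg3Δ*, the double mutant, from which the gene of Rtg3 is deleted as well, a transcription factor of the retrograde pathway that signals mitochondrial state to the nucleus. All strains derive from BY4741/BY4742, carry *his3Δ1*, *leu2Δ0* and *ura3Δ0*, and were grown at 30°C in liquid synthetic complete medium; deletions of interest other than *met15Δ0* were marked with *KanMX*. There was no replicate, so values carry no error, no test between genotypes was possible, and the number of arrays limits the precision. Since *rtg3Δ* single mutants were not analysed here, what the deletion of *RTG3* does without *met15Δ* cannot be told apart from what it does to the *met15Δ* response.

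Values are signals on a linear scale, made by the authors with RMA, which reduces the probes of a set to 1 number, and ratios are signals of 1 genotype over another for the same probe set. Levels of different genes are not compared, since probes differ in brightness. A gene is called higher or lower when its signal differed at least 2-fold. Values are given throughout in the order wild-type, *met15Δ*, double mutant. Signals of the deleted genes matched the labelled genotypes: *MET15* (annotated *MET17*) had 2874, 85.0 and 89.9, and *RTG3* had 2703, 2215 and 28.7. Mating-type transcripts also differed between the arrays. The probe set of *HMRA1* had 47.1, 4073 and 5016 and that of *HMLALPHA1* 977, 71.5 and 59.7, so mating type cannot be told apart from genotype in any comparison with wild-type. Genes that mark mating type or respond to pheromone differed between the mutants too: the pheromone gene *MF(ALPHA)1* had 344, 101 and 2807, the receptor gene *STE2* 151, 917 and 4718, and the receptor gene *STE3* 2157, 454 and 1146. The ratio of 3′ to 5′ signal over 7 control transcripts, a sign of RNA integrity, lay between 1.10 and 12.9, and the transcripts did not rank the arrays alike: for *ACT1* it was 2.99, 2.24 and 2.37, highest in wild-type, and for *SPT15* 2.22, 3.84 and 2.60, lowest there. The part of either difference in the values below was not tested.

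The import genes did not move together in *met15Δ* cells. In 5 of the 8 groups, subunits lay on both sides of wild-type, while the 3 SAM genes were all above it and the genes of the TIM22 complex and the chaperonin all below, save 1 gene of each with bacterial controls. Of the 33 genes, 4 were higher than in wild-type (*PAM17*, *TIM21*, *SAM37* and *SAM35*) and 5 were lower (*PAM18*, *TIM17*, *TOM5*, *MAS2* and *PAM16*). Over all *S. cerevisiae* genes 16.9% were higher and 11.1% lower, against 12.1% and 15.2% of the import genes, which is close to that background. The median log2 ratio of the 33 genes was -0.22, against 0.07 over all genes. Between the mutants, with the double mutant over *met15Δ*, 4 import genes were higher (*SAM35*, *PAM18*, *TIM17* and *HSP10*) and none was lower, where 10.4% of all genes were higher and 10.6% lower. The median was then 0.21, against -0.02 over all genes. With bacterial controls these medians of the 33 genes turned to 0.40 and -0.50. Of the 33 genes, 15 (45.5%) had their lowest signal of the 3 in *met15Δ* cells, as had 21.6% of all genes, ties left out, while scaling to bacterial control transcripts left 3 such import genes and 5.43% of all genes. By the deposited signals 5 had their highest value in *met15Δ* cells, and 13 lay between the other genotypes. Over all genes, ties included, 30.7% had their highest value there and 47.0% lay between.

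**Figure D1:**
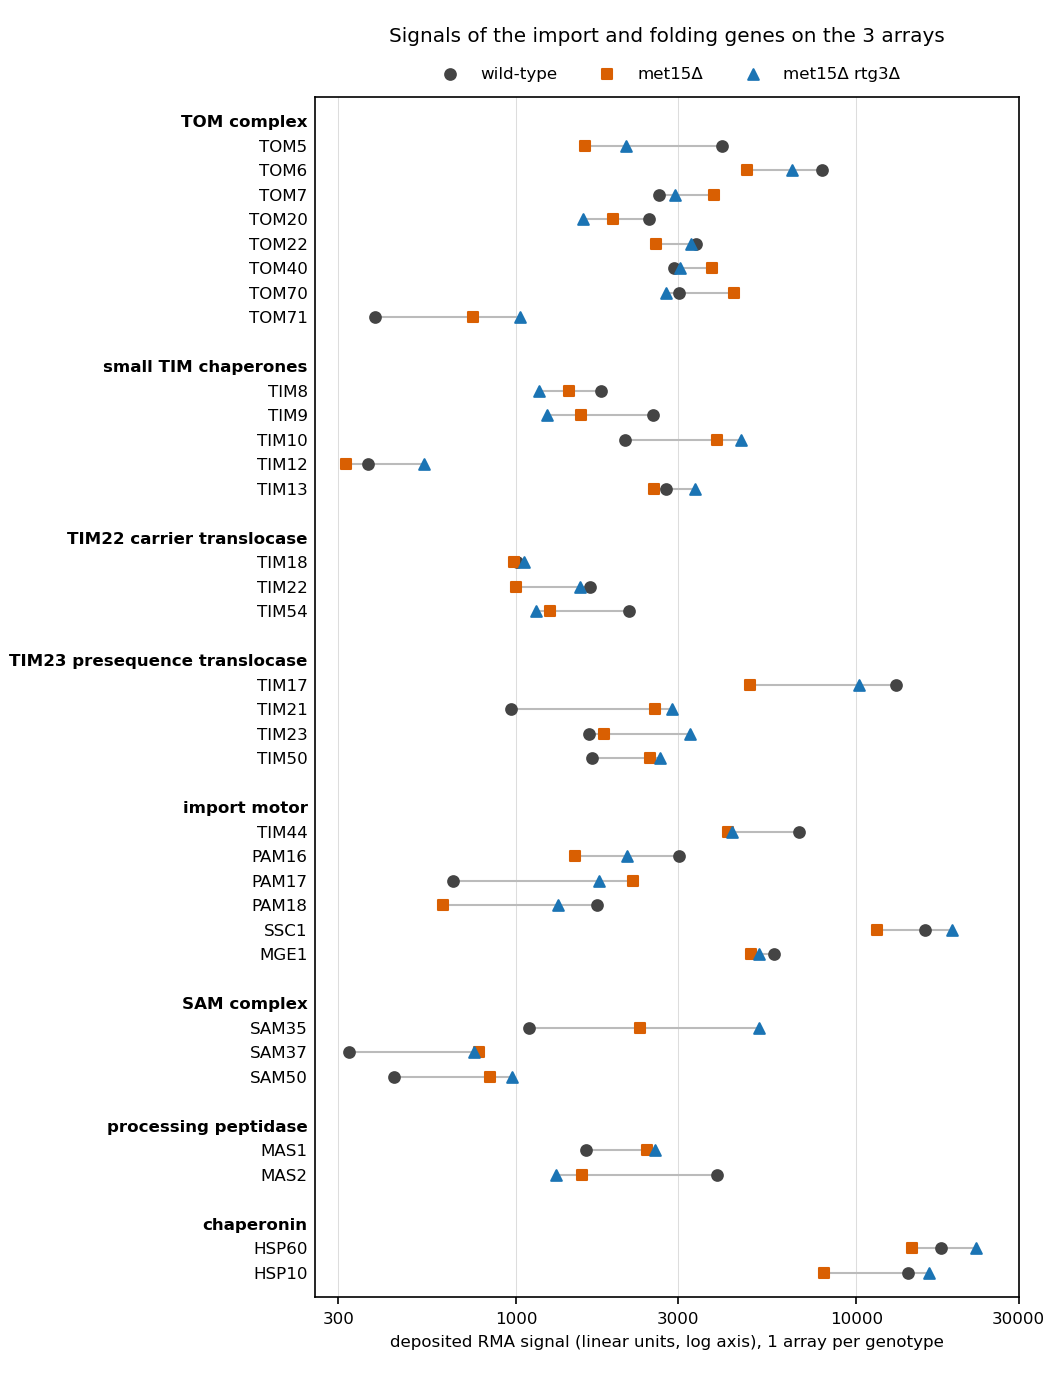
Deposited signal of each of the 33 genes (log axis) in wild-type (circles), *met15Δ* (squares) and *met15Δ rtg3Δ* cells (triangles), 1 array per genotype and no error bars; gray lines span the 3 values. With the deposited signals the square lies leftmost for 15 genes, as for *TIM17* and *PAM18*, while for the SAM genes the wild-type circle is leftmost.

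At the outer membrane, by the deposited signals, the genes of the TOM complex lay within 2-fold of wild-type with the exceptions of *TOM5* and *TOM71*. *TOM5*, a small subunit of the entry pore, had signals of 4038, 1597 and 2108, and was thus 2.53-fold lower in *met15Δ* cells. *TOM71*, a minor homologue of the Tom70 receptor, had 384, 748 and 1026, and was 2.67-fold higher in the double mutant than in wild-type. These were the members of the complex called in any comparison by the deposited signals, 1 lower and 1 higher of 8. With each array divided by its median signal, *TOM6* also passed 2-fold downward in *met15Δ* cells (log2 ratio -1.03). *TOM20* did so in the double mutant over wild-type (-1.14), and *TOM71* lost its call. The wild-type signal of *TOM71*, 384, lay near the highest signal of the probe sets for another yeast species on that array, 273. With bacterial controls *TOM5* lost its call in *met15Δ* cells. There *TOM7* and *TOM70* passed 2-fold upward in *met15Δ* cells and downward between the mutants. *TOM70*, the receptor for carrier precursors, had 3019, 4366 and 2754. Its log2 ratio was 0.53 in *met15Δ* over wild-type and -0.66 between the mutants. By the deposited signals the homologues *TOM70* and *TOM71* thus ran in opposite directions between the mutants. With bacterial controls 0 of the 8 genes were above *met15Δ* in the double mutant. Whether their probe sets share signal was not tested.

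By the deposited signals the pore itself varied little. *TOM40*, which forms the channel, had signals of 2921, 3763 and 3038. The presequence receptor genes *TOM20* (2459, 1925 and 1570) and *TOM22* (3372, 2586 and 3258) had log2 ratios of -0.35 and -0.38 when *met15Δ* was set against wild-type. Among the small stabilizing subunits, *TOM6* had 7909, 4773 and 6452 and *TOM7* had 2634, 3823 and 2932. The small subunits thus differed in direction, with *TOM5* and *TOM6* below and *TOM7* above wild-type in *met15Δ* cells. Since array scaling cancels between genes of the same arrays, the contrast of *TOM7* with *TOM5* does not depend on it: their log2 ratios differed by 1.88 in *met15Δ* over wild-type.

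The SAM complex, which inserts barrel proteins into the outer membrane, was the group whose genes were all above wild-type in both mutants, as they were with the scalings to array medians, *S. cerevisiae* medians and bacterial controls. *SAM35*, a subunit that recognizes the sorting signal of barrel proteins, had signals of 1093, 2309 and 5192, a 2.11-fold rise over wild-type in *met15Δ*, a further 2.25-fold between the mutants, and 4.75-fold in all. *SAM37*, which aids release of the inserted proteins, had 322, 778 and 751, a 2.42-fold difference in *met15Δ* cells with little between the mutants. *SAM50*, the conserved barrel protein at the core of the complex, had 436, 838 and 972. It missed the threshold in *met15Δ* cells at 1.92-fold and passed it in the double mutant at 2.23-fold. Against wild-type, 2 of 3 genes of the complex were therefore called in *met15Δ* cells and 3 of 3 in the double mutant. The wild-type signals of *SAM37* and *SAM50* lay near the highest signal of the probe sets for another yeast species on that array, 273, and their calls were lost when each array was divided by its median signal. The *SAM35* call in *met15Δ* cells was lost there too, at a log2 ratio of 0.78, which left 0 of 3 genes called in *met15Δ*. Between the mutants *SAM35* lost its call with array medians (0.98) and with bacterial controls (0.45). The log2 ratio of *SAM35* in the double mutant over wild-type, 2.25, was the largest of any import gene in the 3 comparisons and stayed past 2-fold in all 9 other settings tried.

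In the intermembrane space, the small TIM chaperones, which shield hydrophobic precursors in transit, were within 2-fold of wild-type in *met15Δ* cells, except *TIM9* with array medians (log2 ratio -1.01) and *TIM10* with bacterial controls (1.53). The partners *TIM9* and *TIM10*, which form 1 hexameric chaperone, moved apart. *TIM9* had signals of 2531, 1553 and 1231, and *TIM10* had 2096, 3904 and 4574. In the double mutant over wild-type this made *TIM9* 2.06-fold lower and *TIM10* 2.18-fold higher, and their log2 ratios differed by 2.17. The call of *TIM9* lies just past the threshold, and it was lost when arrays were scaled to the median of their *S. cerevisiae* probe sets. The other hexamer genes were *TIM8* (1776, 1433 and 1167) and *TIM13* (2757, 2540 and 3351). The product of *TIM12* (367, 317 and 537) docks the chaperone on the TIM22 complex. By the deposited signals none of these genes was called in any comparison. With array medians *TIM8* passed 2-fold downward in the double mutant over wild-type (-1.10).

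None of the 3 genes of the TIM22 complex, which inserts carrier proteins into the inner membrane, was called by the deposited signals, and all 3 were below wild-type in *met15Δ* cells, or 2 of 3 with bacterial controls. *TIM22*, the channel subunit, had 1646, 1002 and 1543, and was lowest in *met15Δ* cells. *TIM54*, a subunit with a large intermembrane space domain, had 2153, 1255 and 1147 and was low in both mutants, at a log2 ratio of -0.91 in the double mutant over wild-type. *TIM18*, a homologue of a succinate dehydrogenase anchor subunit, had 1003, 984 and 1052, and hardly differed between the arrays.

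The presequence translocase gave a sharp contrast among subunits of 1 complex. *TIM17*, which together with Tim23 forms its membrane core, had signals of 13081, 4859 and 10205. Its signal fell 2.69-fold below wild-type in *met15Δ* cells and was 2.10-fold higher again when *RTG3* was deleted too. *TIM21*, which links the translocase to the TOM complex and to the respiratory chain, had 968, 2557 and 2870 and was 2.64-fold higher in *met15Δ* cells, with no return in the double mutant. In *met15Δ* cells the log2 ratios of *TIM21* and *TIM17* to wild-type differed by 2.83, a contrast that no scaling of whole arrays can alter. *TIM23* had 1638, 1818 and 3245, and its log2 ratio in the double mutant over wild-type was 0.99, just inside the threshold. *TIM50*, the receptor for presequences at the inner membrane, had 1675, 2476 and 2645 and was not called. *TIM17* was therefore the 1 gene of this complex below wild-type in *met15Δ* cells, and 3 of 4 were above, or 2 of 4 with array medians, which put *TIM23* below as well.

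**Figure D2:**
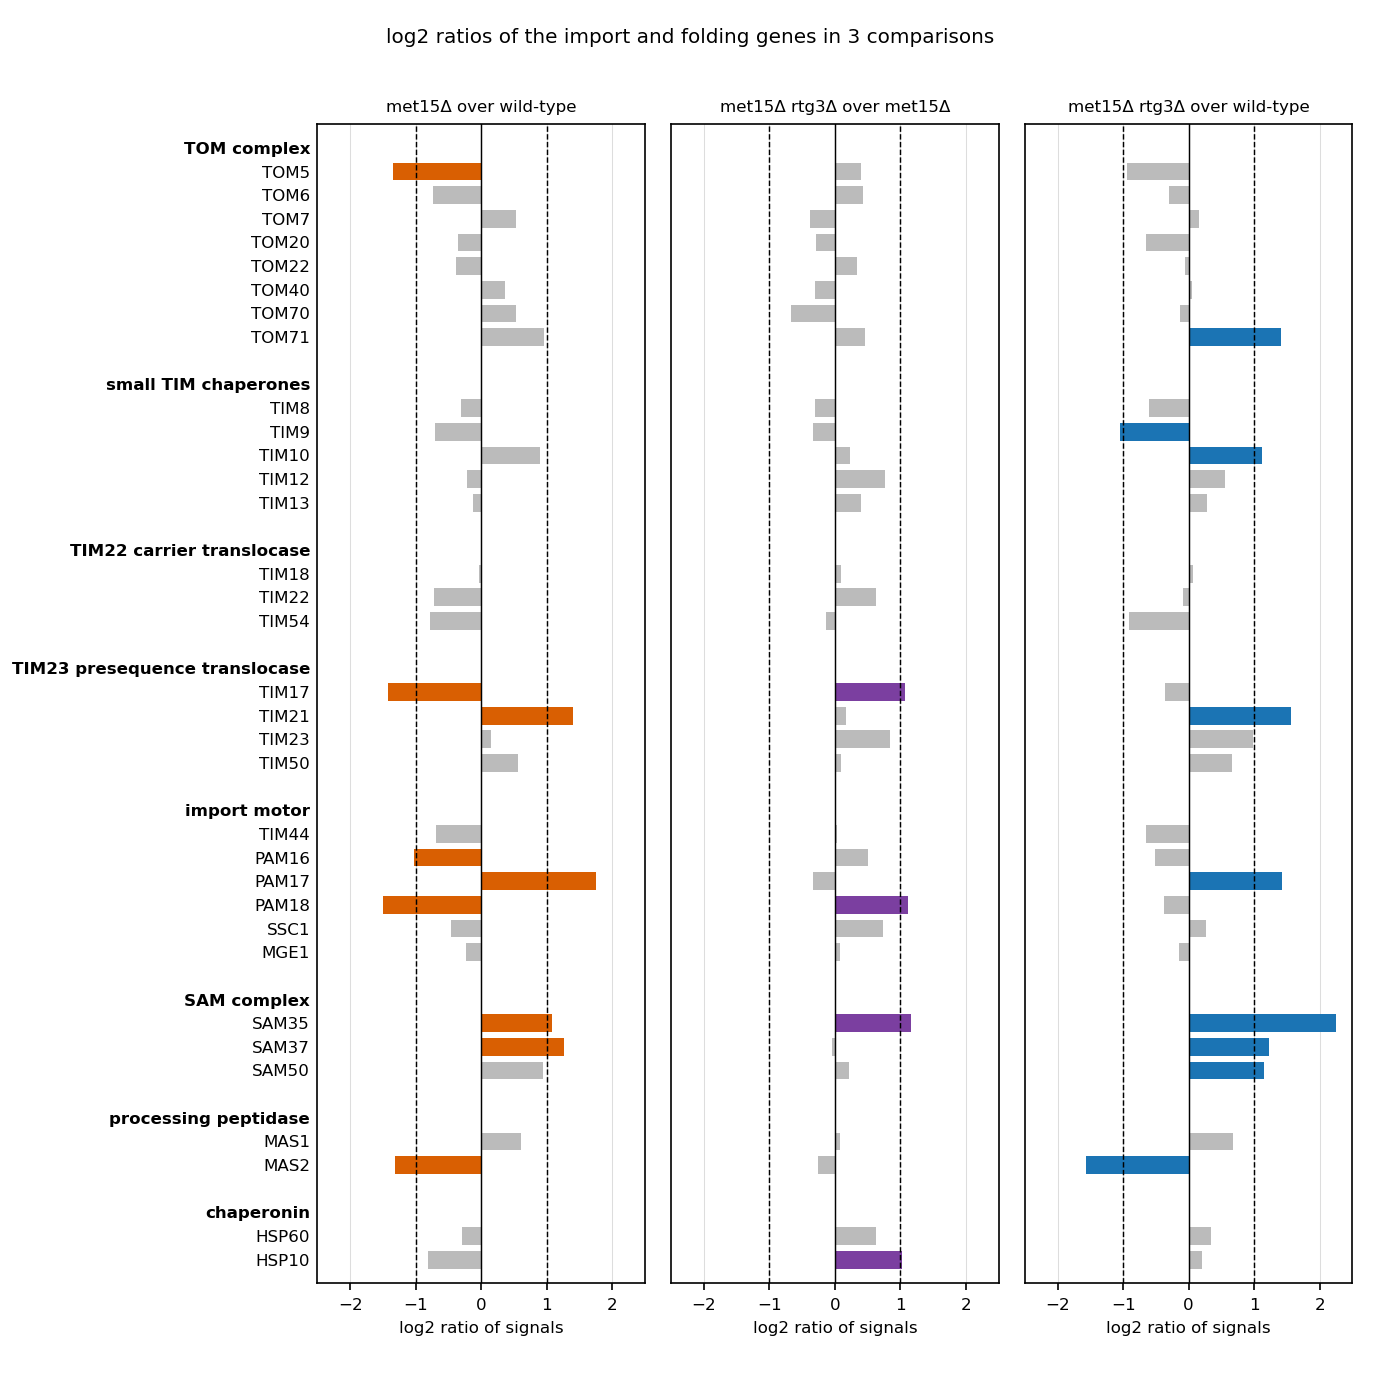
log2 ratio of signals for each of the 33 genes in *met15Δ* over wild-type (left), *met15Δ rtg3Δ* over *met15Δ* (middle) and *met15Δ rtg3Δ* over wild-type (right); dashed lines mark 2-fold and bars past it are colored. *PAM17* and *TIM21* are colored to the right on the left panel and *PAM18* and *TIM17* to the left, and no bar passes 2-fold downward on the middle panel.

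The import motor, which drives precursors into the matrix with Hsp70, split in the same manner. *PAM18* encodes the J-protein that stimulates the Hsp70 and *PAM16* its J-like partner; these proteins bind each other. *PAM18* had signals of 1729, 611 and 1328, 2.83-fold below wild-type in *met15Δ* cells and 2.17-fold higher again in the double mutant. *PAM16* had 3020, 1488 and 2117, at 2.03-fold lower in *met15Δ* cells just past the threshold. With bacterial controls both *PAM16* and *PAM18* lost their calls in *met15Δ* cells. That of *PAM16* was also lost with an offset of 100 and with a local scaling described below. By the deposited signals both partners had their lowest signals in *met15Δ* cells. *PAM17*, whose product anchors the J-protein pair at the translocase, went the other way, with 653, 2208 and 1758, above wild-type by 3.38-fold in *met15Δ* and 2.69-fold in the double mutant. Its log2 ratio of 1.76 in *met15Δ* cells was higher than that of 95.2% of all genes, and the log2 ratios of *PAM17* and *PAM18* differed by 3.26, or 9.57-fold. The ratios of the partners *PAM16* and *PAM18* differed by 0.48.

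By the deposited signals the other motor genes were not called. *SSC1*, the matrix Hsp70 itself, had 15879, 11509 and 19121, highest in the double mutant. Its nucleotide exchange factor gene *MGE1* had 5720, 4896 and 5189. *TIM44*, which tethers the Hsp70 to the channel, had 6779, 4200 and 4298, low in both mutants, which differed by a log2 ratio of 0.03. Of the 6 motor genes, 5 were thus below wild-type in *met15Δ* cells, 2 of them past 2-fold, and 1 above, while with bacterial controls 3 were below and 3 above.

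In the matrix, the subunits of the processing peptidase also diverged, although the enzyme works as a dimer of both. *MAS2*, the subunit that recognizes the presequence, had signals of 3888, 1564 and 1310, and lay 2.49-fold below wild-type in *met15Δ* and 2.97-fold below it in the double mutant. *MAS1*, the catalytic subunit, had 1601, 2432 and 2556, above wild-type in both mutants at 1.52-fold and 1.60-fold. The difference between their log2 ratios was 1.92 in *met15Δ* and 2.24 in the double mutant over wild-type. By the deposited signals *MAS2* was the 1 import gene lower at least 2-fold in both mutants. With array medians *TOM5*, *TIM9*, *TIM54* and *PAM16* were so as well. With bacterial controls *MAS2* lost its call in *met15Δ* cells.

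Both chaperonin genes had their lowest signal in *met15Δ* cells and their highest in the double mutant, an order that *HSP60* lost with bacterial controls and both genes lost with array medians, where wild-type was highest. *HSP10*, the lid of the chaperonin, had 14186, 8047 and 16334, a 2.03-fold difference between the mutants, just past the threshold. *HSP60*, the barrel, had 17802, 14566 and 22450, with a log2 ratio of 0.62 between the mutants that did not pass. By the deposited signals *SSC1* was like them, so that all 3 main matrix chaperone genes had this order of signals, *met15Δ* below wild-type and the double mutant above it. Neither *HSP60* nor *SSC1* was called in any comparison.

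A change is called *RTG3*-dependent when the gene was called in *met15Δ* cells and the double mutant differed from *met15Δ* at least 2-fold in the opposite direction. By this rule *TIM17* and *PAM18* were dependent, both lower in *met15Δ* cells, and no import gene was dependent among the higher ones. Over all genes 2.72% were dependent and lower and 2.51% dependent and higher. The 2 dependent genes are 6.06% of the 33, a count too small to set against that background. In the double mutant *TIM17* and *PAM18* came back to log2 ratios of -0.36 and -0.38 against wild-type. By the deposited signals, 9 import genes were called in *met15Δ* cells. The 4 higher ones stayed at least 2-fold higher than wild-type in the double mutant. Of the 5 lower ones, *MAS2* stayed lower and the other 4 lay within 2-fold of wild-type. With array medians *TOM5* (-1.43) and *PAM16* (-1.01) stayed lower too, and *PAM17* (0.93) came within 2-fold. With bacterial controls no import gene was called lower in *met15Δ* cells. Both dependent calls were lost with array medians, where the log2 ratios of *TIM17* and *PAM18* between the mutants were 0.88 and 0.93, and with bacterial controls, where they were 0.35 and 0.40.

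Set against wild-type, the double mutant had 7 import genes higher (*SAM35*, *TIM21*, *PAM17*, *TOM71*, *SAM37*, *SAM50* and *TIM10*) and 2 lower (*MAS2* and *TIM9*), with a median log2 ratio of 0.07, against 0.09 over all genes. Of all genes, 21.1% were higher and 17.2% lower. In either direction, 14 of the 33 genes passed 2-fold in at least 1 comparison and 19 in none. The share of all genes past 2-fold in any comparison was not computed. In both mutants 12 genes were above wild-type and 14 below, 6 were below in *met15Δ* and above in the double mutant, and 1 was the reverse. Over all genes the shares above and below wild-type in both mutants were 41.5% and 32.4%. The comparisons share arrays, so these counts are not independent of each other.

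The choice of scaling bears on every ratio. Scaling to the bacterial control transcripts, through their median on each array, moved the median log2 ratio of all genes to 0.70 in *met15Δ* over wild-type and to -0.74 between the mutants. With it 11 import genes lay at least 2-fold above wild-type in *met15Δ* cells and none as far below, and 7 were lower and none higher between the mutants, where 37.0% of all genes were lower and 3.19% higher. Array medians moved the medians of all genes to -0.23 and -0.22, and counts in *met15Δ* cells were then 2 higher and 10 lower. The shares of all genes called in *met15Δ* cells moved likewise, to 37.3% higher and 4.44% lower with the bacterial controls and to 10.4% higher and 17.5% lower with array medians. The difference between the median of the import genes and that of all genes, -0.30 in *met15Δ* over wild-type, was the same with either scaling, since each moves all log2 ratios of a comparison alike. *PAM17* and *TIM21* in *met15Δ* cells, and *SAM35*, *TIM21* and *MAS2* in the double mutant over wild-type, kept their calls with all 4 other scalings.

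**Figure D3:**
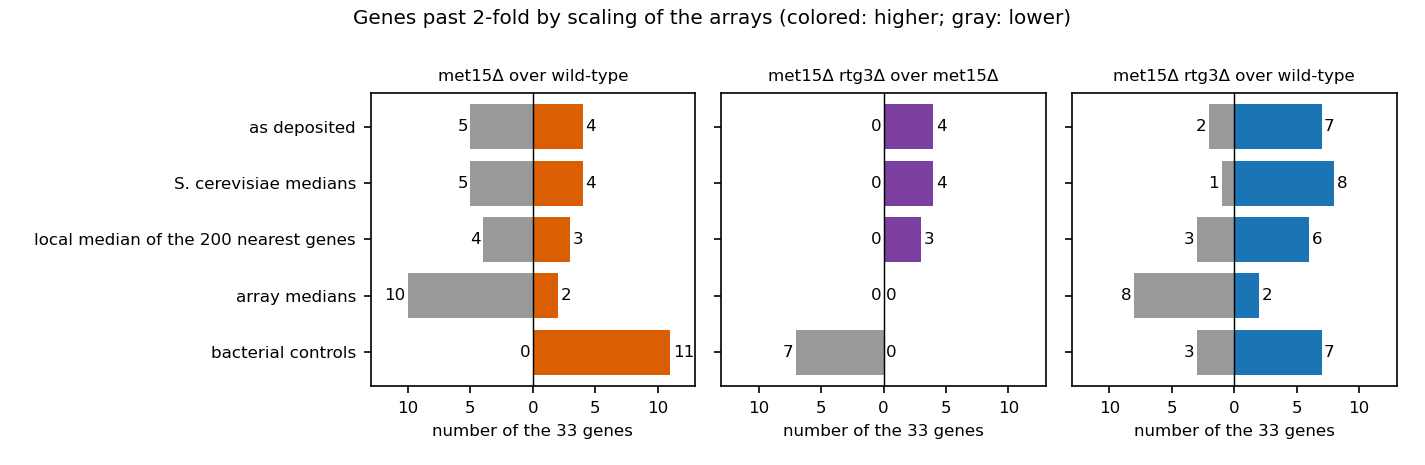
Number of the 33 genes at least 2-fold higher (colored, to the right) or lower (gray, to the left) in the 3 comparisons, with the deposited signals and with 4 other scalings of the arrays. In *met15Δ* over wild-type the counts run from 2 higher and 10 lower with array medians to 11 higher and none lower with the bacterial controls.

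Other genes of the import pathway and of mitochondrial protein quality control, 35 in all, lay at a median log2 ratio of 0.41 in *met15Δ* cells, above 0 with every scaling of whole arrays, and 6 were higher than wild-type and 3 lower. These were 17.1% and 8.57%, against 16.9% and 11.1% of all genes. *PHB2*, a prohibitin that forms rings in the inner membrane, had signals of 2540, 8801 and 11307, and *PIM1*, the matrix Lon protease, had 1779, 4258 and 4327. *MIM2*, whose product helps insert helical outer membrane proteins, had 1360, 574 and 1368, 2.37-fold below wild-type in *met15Δ* cells and 2.38-fold higher between the mutants, an order of signals like that of *TIM17* and *PAM18*. *MCX1*, a homologue of the bacterial ClpX unfoldase, ran in the reverse order, with 810, 1924 and 622. *OXA1*, the insertase for proteins that enter the inner membrane from the matrix, had 1038, 1076 and 4318, 4.01-fold apart between the mutants. *MDJ2* was counted among the 6, and among the 9 higher in the double mutant over wild-type. Its signals on all 3 arrays (58.8, 152 and 152) lay under the highest of the other species' probe sets, so no fold is given for it. Between the mutants 4 of the 35 were higher and 1 lower, with a median of 0.22 (-0.50 with bacterial controls). That made 11.4% and 2.86%, against 10.4% and 10.6% of all genes. In the double mutant over wild-type 9 were higher and none lower, with a median of 0.50 (0.007 with array medians). The share higher was 25.7%, where 21.1% of all genes were higher and 17.2% lower.

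**Figure D4:**
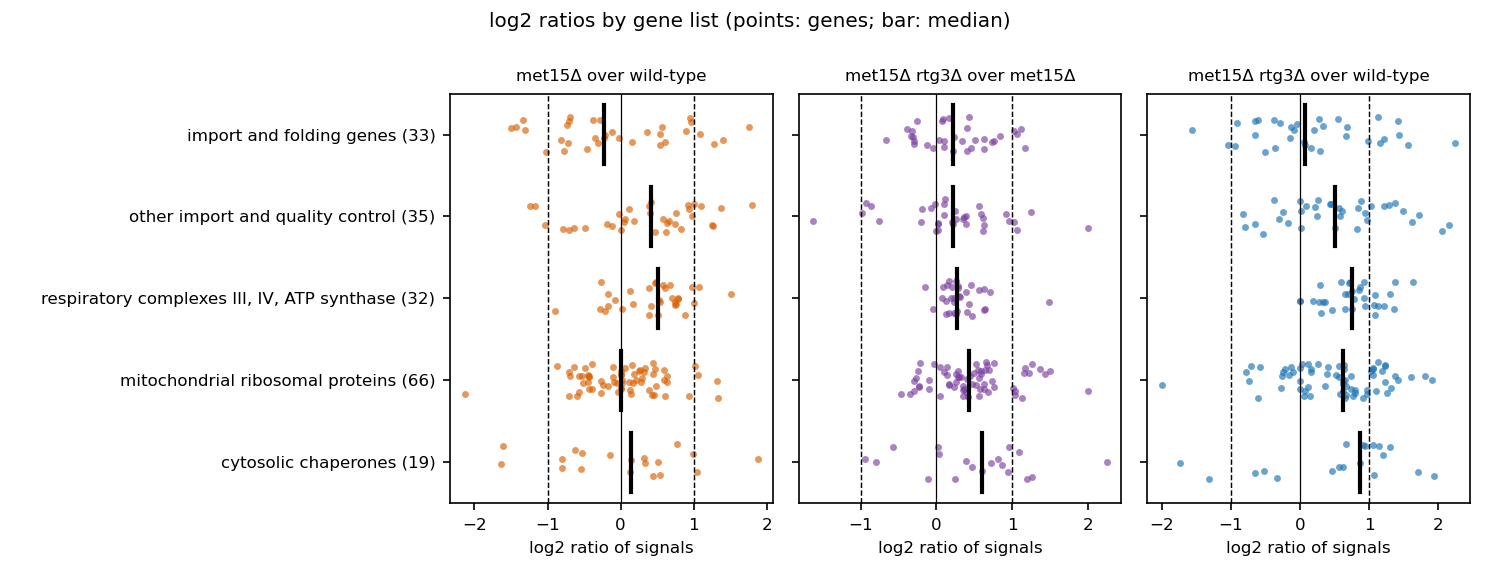
log2 ratios of the genes of 5 lists in the 3 comparisons; each point is a gene, the black bar is the list median and dashed lines mark 2-fold. The number of genes stands beside each list; in *met15Δ* over wild-type the import and folding genes have a median of -0.22 (0.40 with bacterial controls) and the respiratory genes one of 0.51.

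Proteins of the respiratory chain and the mitochondrial ribosome are the cargo of this machinery. Of 32 genes of complexes III and IV and the ATP synthase, 3 passed 2-fold upward and none downward in *met15Δ* cells, with a median log2 ratio of 0.51, above 0 with every scaling of whole arrays, and in the double mutant over wild-type 9 were higher (median 0.75). The shares higher were 9.38% and 28.1%, against 16.9% and 21.1% of all genes. Of 66 mitochondrial ribosomal protein genes, 4 passed 2-fold upward and 1 downward in the *met15Δ* strain (median 0.01, or -0.29 with array medians). Between the mutants 12 were higher and none lower (median 0.43, or -0.29 with bacterial controls), where 10.4% and 10.6% of all genes were. Among 19 cytosolic chaperone genes the medians were 0.14 (-0.16 with array medians) and 0.61 (-0.11 with bacterial controls) in the same comparisons. The medians of the import genes, -0.22 and 0.21, lay below those of these 3 lists, though between the mutants the respiratory genes came near, at 0.27 (-0.45 with bacterial controls). With 1 array per genotype these differences between lists were not tested. The quartiles of the import genes in *met15Δ* cells were -0.72 and 0.56, and those of all genes -0.45 and 0.70.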

How the data were processed

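RMAExpress was used by the authors for background correction and RMA summaries, and each deposited value is the linear signal of 1 probe set; which normalization was chosen is not stated in the paper, labels or file. Signals were used as deposited. Of 10928 probe sets, 5498 had 1 symbol of *S. cerevisiae* (5449 genes; log2 signals of several probe sets of a gene were averaged), by matching the gene IDs of the platform annotation to a gene table of assembly R64, used for names and gene order only. A further 1746 belonged to another species; their highest signals (273, 273 and 289) served as a lower limit, and no import gene lay under it. Where 1 signal of a fold lay under that limit, no exact fold is given.

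Ratios were called at 2-fold after the study's methods, over all genes, with no test. The import genes and comparison lists were chosen with earlier results of these data known. All 33 import genes are named; of the other lists, genes past 2-fold. The code for the calls was run on simulated arrays with changes far past the threshold and little noise. That checks the code only, not the calls of these arrays, many of which lie near the threshold. Alternatives were 3 array scalings, a local one added after the data had been examined (log2 ratio minus the median of the 200 genes nearest in signal), fold thresholds of 1.5 and 3, a signal minimum of 500, an offset of 100, and the brightest probe set. Promoter and protein sequences, and mitochondrial DNA-encoded genes, were not analysed here. Python 3.11.15, pandas 2.3.3 and numpy 2.4.6 were used.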

Additional observations from a re-analysis of the deposited data

How the results depend on the processing

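Of 22 calls of single import genes over the 3 comparisons, none changed direction in any setting; 21 were kept with *S. cerevisiae* medians, 17 with the local scaling, 13 with the bacterial controls, 11 with array medians, 22 with the signal minimum or the brightest probe set and 19 with the offset. In *met15Δ* over wild-type (4 higher, 5 lower, median -0.22), array medians gave 2, 10 and -0.53, and the bacterial controls 11, 0 and 0.40. Between the mutants (4, 0 and 0.21), array medians gave 0, 0 and 0.022, the bacterial controls 0, 7 and -0.50, *S. cerevisiae* medians a median of 0.31 and the local scaling one of 0.31. In the double mutant over wild-type (7, 2 and 0.07), array medians gave 2, 8 and -0.43, the bacterial controls a median of -0.022, and *S. cerevisiae* medians or the offset 1 lower. With array medians 7.87% of all genes were higher and 16.1% lower between the mutants. In the double mutant over wild-type these shares were 11.2% and 28.8%. *RTG3*-dependent genes (2 lower, 0 higher) were 0 with array medians, and 0 lower and 3 higher with the bacterial controls (*PAM17*, *TOM7* and *TOM70*). With the bacterial controls 15.8% of all genes were dependent and higher and 0.66% dependent and lower. At 1.5-fold the counts were 8 higher and 11 lower, 9 and 1, and 10 and 7 in the order above. There 4 import genes were dependent and lower. Of all genes 29.1% and 20.4%, 19.9% and 23.9%, and 32.7% and 26.6% were called, and 6.24% were dependent and lower. At 3-fold the counts were 1 and 0, 0 and 0, and 1 and 0, with none dependent. The shares of all genes were then 6.70% and 4.64%, 4.02% and 3.01%, and 9.65% and 8.28%. Why the scalings differ was not tested. No paired analysis was possible because there was 1 array per genotype, so leaving out a replicate was not possible either, and the spread between cultures is unknown.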

Other observations

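In the gene order of assembly R64, some import genes lie beside a gene that moved far in the other direction. Others lie beside one that moved far in the same direction. The pairs given here were picked after their values had been seen. *TIM22* neighbors *YDL218W*, with signals of 218, 4962 and 216 in the order of genotypes used above; the first and last lay under the limit set by the probe sets of another species, so that no fold is given. The log2 ratios of *TIM22* were -0.72 in *met15Δ* over wild-type and 0.62 between the mutants. *TOM71* neighbors *COX23*, with signals of 1364, 213 and 443, of which that in *met15Δ* cells lay under the same limit, while *TOM71* had 384, 748 and 1026. *SSC1* neighbors *VPS55*, whose log2 ratios were 1.76 and -1.04, where *SSC1* had -0.46 and 0.73. None of the 33 genes overlapped its neighbor in the table, and no test of neighbors as a class was made.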
